A study of Mus musculus and Homo sapiens with 40 samples.

Results

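Chromatin of 1 cell line expressing the fusion protein CEBPA p42-ERT2 was mapped with 2 antibodies, and the resulting lists of sites were divided into 3 classes. The anti-CEBPA list held 47489 sites and the anti-ER list 23210 sites on chromosomes 1 to 19 and X, together 70699 of the 814801 sites in the 9 mouse lists read here. A site belonged to the class of both antibodies when it overlapped a site of the other list by at least 1 bp, which was the case for 18088 anti-CEBPA sites and for the 18126 anti-ER sites opposite them. The remaining 29401 anti-CEBPA sites and 5084 anti-ER sites formed the classes of 1 antibody only. Sites of both antibodies are counted as anti-CEBPA sites unless stated otherwise.

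The series profiled how the isoforms of CEBPA shape the chromatin of blood progenitors, with 38 of its 40 samples from HPC-7, a mouse haematopoietic progenitor line that grows in stem cell factor. The cells used here carried the full-length p42 isoform fused to ERT2, a tamoxifen-binding fragment of the estrogen receptor. According to the study's methods, the fusion was expressed constitutively from a retroviral vector with a GFP marker, cells were sorted for GFP, and hydroxytamoxifen was used to bring such fusions into the nucleus. The sample labels give the treatment of both libraries as none, that is without LPS, and do not name hydroxytamoxifen. The antibody against CEBPA recognises CEBPA itself, whereas the antibody against estrogen receptor α recognises the ER part of the fusion. The paper reports that HPC-7 cells also hold endogenous CEBPA, at a very low level. The part of endogenous protein in either list was not tested. Each list came from 1 library, called by the authors against input chromatin. For the same line, H3K27ac lists pooled from 3 samples, untreated or given LPS at 100 ng/mL for 2 h, and an untreated H3K4me1 list pooled from 2 samples were used to describe the sites. Anti-CEBPA and anti-ER lists of HPC-7 cells with p30-ERT2, the shorter isoform, came from 1 untreated library each.

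C/EBPα is a basic leucine zipper transcription factor that drives the myeloid fate, above all that of granulocytes. It binds DNA as a dimer, either with itself or with other members of its family, and it also pairs with ATF4 at composite sites made of a half-site of each. Acetylation of histone H3 at lysine 27 (H3K27ac) marks active promoters and enhancers, and monomethylation at lysine 4 (H3K4me1) marks enhancers whether or not they are active. Of the 12 genes listed as progenitor markers, 12 had an H3K27ac peak of untreated p42-expressing cells at the promoter, among them *Kit*, *Gata2*, *Tal1* and *Runx1*. Of the 12 markers of other tissues, 0 had such a peak, and of the 11 markers of mature blood cells 5 (45.5%) had one. Over all 21584 protein-coding genes the share was 53.0%, so that of the mature markers was near it.

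Because a single library stands behind each list, differences between the lists could not be set against replicate spread and are reported without p-values. The depth of the libraries is not known from the lists. The anti-ER list carries the authors' mark of a call without a shifting model at q 0.05, and the anti-CEBPA list carries no such mark. The labels also give an input named for the anti-ER library of this line and a second input that names no antibody. Antibody, input library and calling settings therefore cannot be told apart. The shortest sites were 200 bp in the anti-CEBPA list and 142 bp in the anti-ER list. Values in brackets after a share are Wilson 95% intervals, which reflect only the counting of sites or genes.

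Sequences at the summit, the base with the highest signal, are shown for some of the leading sites of each class. The windows below hold 80 bases around the summit of leading sites (GRCm39, forward strand), with matches to the C/EBP core TTGCNNAA on either strand in capitals. The first 3 were found by both antibodies, near *Sp3* (chr2:72877498-72877577), *Fer* (chr17:64194136-64194215) and *Sntg1* (chr1:9002650-9002729), and each holds the full palindrome TTGCGCAA.
Sp3: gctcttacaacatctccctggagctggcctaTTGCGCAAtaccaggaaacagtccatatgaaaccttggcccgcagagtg
Fer: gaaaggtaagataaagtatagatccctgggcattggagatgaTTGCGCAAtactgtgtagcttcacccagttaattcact
Sntg1: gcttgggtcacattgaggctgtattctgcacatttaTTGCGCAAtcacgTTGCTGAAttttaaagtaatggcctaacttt

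The next 2 windows are from the 5 strongest sites of anti-CEBPA only, at chr14:82849631-82849710, with *Pcdh17* as the nearest protein-coding gene, and at chr5:15009549-15009628, with *Speer4e2* as the nearest. They were chosen because each holds a single core, which is not the palindrome. The other 3 of these 5 sites hold no core within 200 bp, and that near *Pex5l* holds the CEBP:ATF4 composite described below.
Pcdh17: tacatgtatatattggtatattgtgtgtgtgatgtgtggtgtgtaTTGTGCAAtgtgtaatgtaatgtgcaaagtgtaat
Speer4e2: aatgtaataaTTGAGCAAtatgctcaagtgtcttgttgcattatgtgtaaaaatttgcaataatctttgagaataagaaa

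The last 5 windows are sites of anti-ER only. Those near *Ermard* (chr17:15260923-15261002) and *Ermardl2* (chr17:15198196-15198275) shared a run of 66 bases. The windows near *Skint6* (chr4:113418775-113418854), *Vmn1r261* (chr6:3201453-3201532) and *Fnip1* (chr11:54377108-54377187) are the 3 best-ranked of the class whose sequence occurs in 1 place, a choice made after the values were seen. The window near *Vmn1r261* holds no core.
Ermard: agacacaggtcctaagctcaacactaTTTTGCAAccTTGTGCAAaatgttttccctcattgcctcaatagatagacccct
Ermardl2: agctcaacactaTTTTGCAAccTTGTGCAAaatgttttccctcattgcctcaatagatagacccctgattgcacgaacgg
Skint6: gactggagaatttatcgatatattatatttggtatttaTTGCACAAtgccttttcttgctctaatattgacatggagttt
Vmn1r261: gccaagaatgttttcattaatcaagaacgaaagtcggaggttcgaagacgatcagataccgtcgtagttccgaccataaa
Fnip1: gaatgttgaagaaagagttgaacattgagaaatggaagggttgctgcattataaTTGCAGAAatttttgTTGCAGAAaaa

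The strongest sites of either list were nearly always seen by the other antibody. Ranked by q-value and then by fold enrichment, 95.1% (94.4 to 95.7) of the strongest 10% of anti-CEBPA sites were matched in the anti-ER list, against 50.5% in the third decile and 16.1% (15.1 to 17.2) in the last. For the anti-ER list the share fell from 99.4% (98.9 to 99.6) to 36.8% (34.9 to 38.8). Over the whole lists, 38.1% (37.7 to 38.5) of the anti-CEBPA sites and 78.1% (77.6 to 78.6) of the anti-ER sites were shared. The lists differed in length, and when the 23210 best-ranked sites of each were taken the shares became 57.8% and 57.9%.

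**Figure D1:**
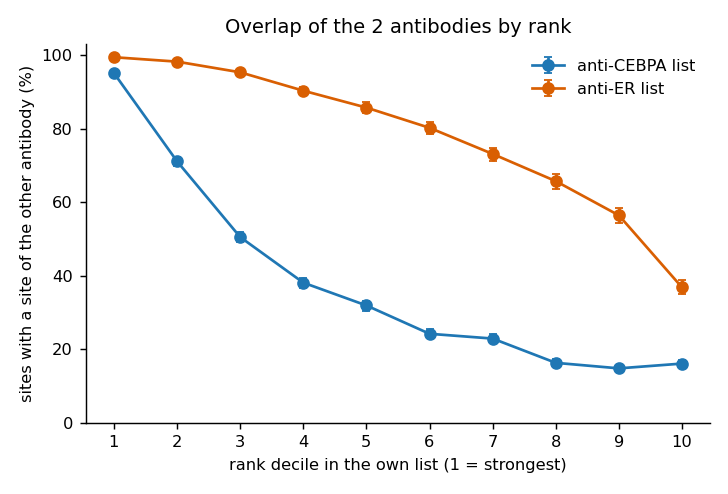
Share of sites (%) that overlap a site of the other antibody, by rank decile within the own list (1 is the strongest), for the anti-CEBPA and the anti-ER list of p42-expressing cells; bars are Wilson 95% intervals. The anti-ER list stays above 90% for its 4 strongest deciles and ends at 36.8%, while the anti-CEBPA list falls to 50.5% by the third decile.

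Where the antibodies met, they marked the same place. The median gap between their summits was 11 bp, and 92.5% of the sites had summits within 50 bp of each other. Fold enrichment, the authors' signal over the local background at the summit, correlated across the 18088 sites with a Spearman rho of 0.554, which describes sites of 2 single libraries and not replicates. Its median at these sites was 11.5 in the anti-CEBPA list. At sites of anti-CEBPA only it was 6.72 (quartiles 5.65 and 8.64), and at sites of anti-ER only 5.04 (4.25 and 6.24) in the anti-ER list. Few sites missed the other list narrowly. An anti-ER summit lay within 1000 bp of 1.5% of the anti-CEBPA only sites, and an anti-CEBPA summit within 1000 bp of 7.81% of the anti-ER only sites. Within 10000 bp these shares were 16.1% and 48.6%.

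Of the 5 best-ranked sites of both antibodies, 4 lay outside H3K27ac. The leader, 66264 bp from the nearest protein-coding start, that of *Sp3*, a zinc finger factor of the SP family, had fold enrichments of 127 with anti-CEBPA and 196 with anti-ER. It was the 1 site of the 5 inside an H3K27ac peak. The site near *Fer*, a cytoplasmic tyrosine kinase, had 128 and 198, the highest values of either list. Those near *Sntg1*, a syntrophin, *Prl5a1*, of the prolactin family, and *Crim1*, a membrane protein that binds bone morphogenetic proteins, had anti-CEBPA values of 104, 123 and 123. All 5 held the palindrome and had sites of both antibodies in p30-expressing cells. The *Prl5a1* site lay 386621 bp from that gene's start, at the start of a long non-coding transcript. At promoters of protein-coding genes the best-ranked sites of both antibodies belonged to *Lrrc40*, *Pnp*, *Pdk1*, *4933416I08Rik* and *Tomm6*. The *Lrrc40* site, 44 bp downstream of the start, had fold enrichments of 125 and 131. *Pnp*, a purine salvage enzyme, had 63.7 and 82.1, and *Pdk1*, a kinase that holds back pyruvate dehydrogenase, had 86.0 and 76.1. *Pnp* and *Tomm6*, a subunit of the mitochondrial import pore, were the 2 of these promoter sites in H3K27ac.

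Sites of anti-CEBPA only started lower in their list. The first ranked 628th of 47489, in intergenic sequence on chromosome 8 with *Nrg1*, a growth factor gene, as the nearest gene 141726 bp away, and its fold enrichment was 42.1. The next 4 lay near *Pcdh17*, *Speer4e2*, *Tex29* and *Pex5l*, with values of 39.4, 26.7, 31.8 and 34.8. The 50 bases at the *Nrg1* and *Speer4e2* summits had 6 and 5 exact matches in the genome, and those at the other 3 had 1. The *Nrg1* summit lies in a tandem repeat, where shifted matches within the same repeat count separately. None of these 5 sites lay in H3K27ac or H3K4me1, and all 5 had sites of both antibodies in p30-expressing cells, anti-ER included. At promoters the best-ranked sites were those of *Or8b54*, an olfactory receptor, *Zfc3h1*, *A830018L16Rik*, *Hint3* and *Abcb1b*, a drug efflux pump, with values from 31.7 down to 19.0. None of these 5 promoter summits lay in H3K27ac.

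The strongest sites of anti-ER only fell in sequence that the genome holds more than once. The best 5 lay at the promoters of *Ermard*, *Ermardl1* and *Ermardl2* on chromosome 17 and at a pair of places on chromosome 13 whose nearest gene, 149176 and 50056 bp away, was *Prl2c3*, of the prolactin family. Their fold enrichments were 35.1, 25.1 and 27.2 at the *Ermard* genes and 49.3 and 40.7 on chromosome 13. The 50 bases at each of these 5 summits occurred exactly in 3 places of the genome, and each site had an anti-ER site in p30-expressing cells. Of the 15 anti-ER only sites in the strongest decile of the list, 13 (86.7%, 62.1 to 96.3) had such a repeated sequence. The share was 57.1% in the next decile, 8.13% in the fifth and 25.4% in the last. Over the whole class 14.4% of the sites had another exact copy, against 2.41% of the sites of both antibodies and 2.44% of those of anti-CEBPA only. In numbers, 253 anti-ER only sites had 2 to 5 copies and 480 had 6 or more. The methods name Bowtie2 with its default reporting, under which a read that fits several places equally well is placed at one of them by chance. Whether such reads were later filtered is not given in the sources used here, and the part of repeated sequence in the result was not tested.

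Among anti-ER only sites with a single exact copy, the first ranked 1312th of 23210, near *Skint6*, with a fold enrichment of 27.1. The site in an intron of *Fnip1*, a partner of the folliculin tumour suppressor, had 18.2 and lay in H3K27ac, as did those near *Zfp386* (12.8) and *Rin3* (16.8). The remaining site of these 5, near *Vmn1r261*, ranked 2252nd with a fold enrichment of only 3.23, and no p30 list held it. At promoters with a single copy the leaders were *Aqp9*, a water and glycerol channel of liver and neutrophils, with 16.3, and *Fndc3b*, with 12.2, both in H3K27ac.

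The 3 classes lay in different chromatin. H3K27ac of untreated p42-expressing cells covered the summits of 40.0% (39.3 to 40.7) of the sites of both antibodies, of 57.3% (56.0 to 58.7) of those of anti-ER only, but of 6.01% (5.74 to 6.29) of those of anti-CEBPA only. The mark itself covered 4.48% of the bases of these chromosomes, which put the anti-CEBPA only share slightly above that of the genome. H3K4me1 covered 18.3%, 27.1% and 4.94% of the summits in the same order and 3.12% of the bases. Where a summit lay in an H3K27ac peak, the median fold enrichment of that peak was 14.4 for both antibodies, 14.3 for anti-ER only and 8.4 for anti-CEBPA only. With LPS the H3K27ac shares were 37.8%, 54.5% and 5.25%. With lists of equal length the anti-CEBPA only shares fell to 3.11% for H3K27ac and 3.09% for H3K4me1, and the order of the classes was the same.

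**Figure D2:**
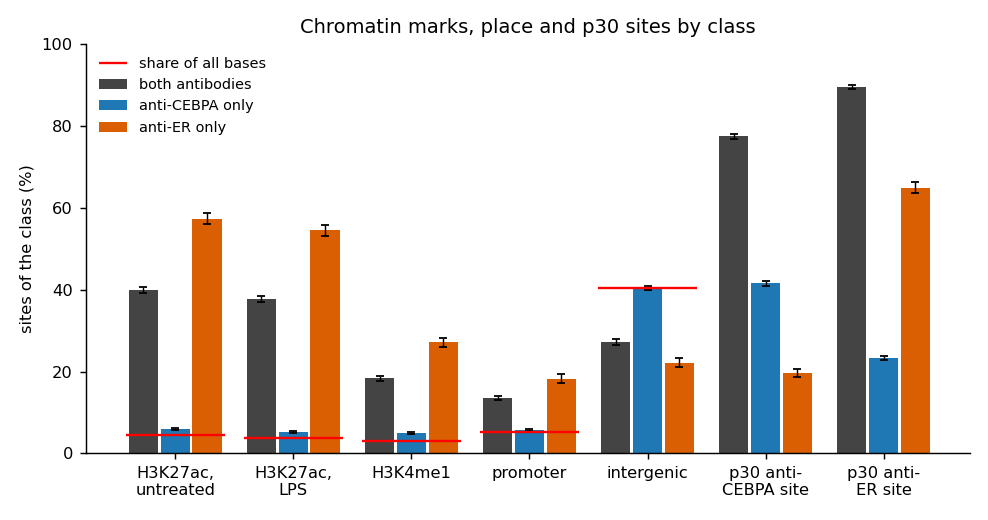
Share of sites (%) of each class whose summit lay in H3K27ac, H3K4me1, a promoter or intergenic sequence, or that overlapped a site of p30-expressing cells; bars start at 0 with Wilson 95% intervals, and red lines give the share of all bases where there is one. Anti-ER only sites have the highest shares in the marks and at promoters, and anti-CEBPA only sites sit at the red lines or slightly above.

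Within the shared sites, H3K27ac was more frequent at weaker anti-CEBPA ranks and less frequent at weaker anti-ER ranks. The matched share itself fell with rank, from 95.1% to 16.1% for anti-CEBPA and from 99.4% to 36.8% for anti-ER. The shares below therefore describe matched and unmatched sites apart, and not either list as a whole. Among sites of both antibodies ordered by their anti-CEBPA rank, 22.4% (21.2 to 23.6) of the strongest decile lay in H3K27ac and 64.2% (60.8 to 67.5) of the weakest. Ordered by their anti-ER rank, the anti-ER sites opposite them went from 48.4% (46.4 to 50.4) to 32.4% (29.4 to 35.6). For anti-CEBPA only sites the share rose from 0 of 234, with an upper bound of 1.62%, to 11.2% in the weakest decile. For anti-ER only sites it was 20.0% of 15 sites in the strongest decile, 71.7% in the fifth and 47.2% in the last.

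**Figure D3:**
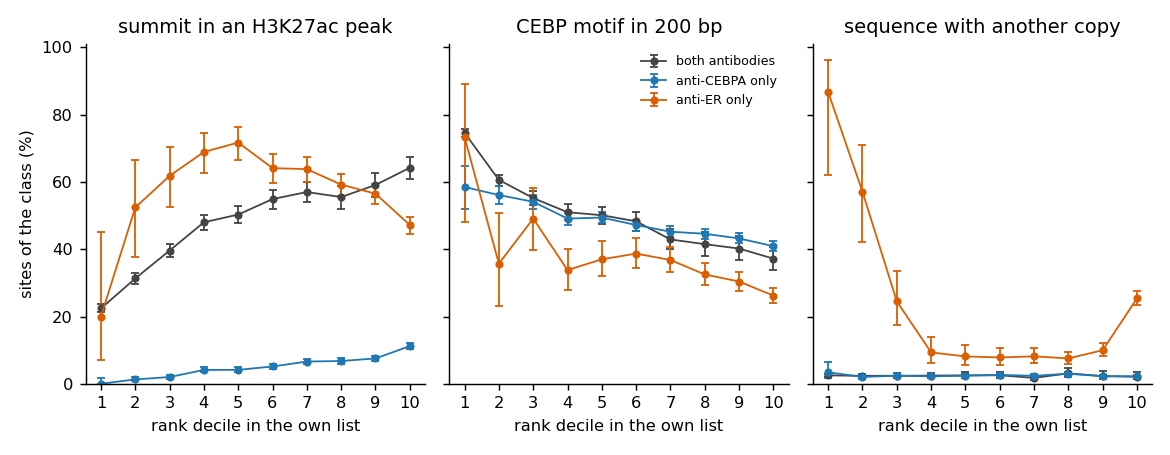
Share of sites (%) of each class by rank decile in the own list (anti-CEBPA rank for sites of both antibodies) with a summit in H3K27ac, a CEBP motif in 200 bp, or a 50-base sequence with another exact copy; bars are Wilson 95% intervals. Repeated sequence stays below 4% for sites of both antibodies and of anti-CEBPA only, and is above 50% in the first 2 deciles of anti-ER only, which hold 15 and 42 sites.

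Anti-ER only sites lay nearer to genes and in richer sequence. Their median distance to a protein-coding start was 11757 bp, against 16712 bp for both antibodies and 53718 bp for anti-CEBPA only. Promoters, taken as the 1000 bp before a transcript start and the 100 bp after it, held 18.2% (17.2 to 19.3), 13.6% (13.1 to 14.1) and 5.75% (5.49 to 6.02) of the summits, and 5.3% of all bases. Intergenic sequence held 22.1%, 27.2% and 40.3%, and the genome's share was also 40.3%. Counted within 2500 bp of a start, the promoter shares became 38.9%, 30.9% and 17.7%. The median GC content of 200 bp around the summit was 47.0%, 43.5% and 37.5%, beside 41.5% over all windows. When only sites with a single copy were kept, the anti-ER only shares rose to 65.5% in H3K27ac and 20.0% at promoters.

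The C/EBP core TTGCNNAA was most frequent at sites of both antibodies. It was found in 57.1% (56.4 to 57.8) of the 200 bp windows of both antibodies, 46.7% (46.1 to 47.2) of those of anti-CEBPA only and 32.2% (31.0 to 33.5) of those of anti-ER only, where 9.35% of all 12806975 windows of the genome held it. The palindrome TTGCGCAA, a case of the core, was found in 4.4% (4.11 to 4.71), 0.813% (0.716 to 0.922) and 0.452% (0.302 to 0.678) of the windows, beside 0.016% of all windows. In the strongest decile of the anti-CEBPA list, the sites of both antibodies held it in 12.1% (11.2 to 13.1). The composite of C/EBP and ATF4 half-sites, TGATGCAA, had another order. It was highest at anti-CEBPA only sites, with 11.9% (11.5 to 12.3), against 7.16% (6.8 to 7.55) at sites of both antibodies and 3.42% (2.96 to 3.96) at anti-ER only sites, beside 0.619% of all windows. Among the 234 strongest anti-CEBPA only sites 18.8% (14.3 to 24.3) held it, and 6.91% (6.21 to 7.69) of the 4515 shared sites in the same decile did. The same 8 letters cannot match both TTGCNNAA and this composite.

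Motifs of other blood factors were most frequent at anti-ER only sites. The PU.1 sequence GAGGAAGT was found in 6.69%, 4.11% and 1.33% of the windows of anti-ER only, both antibodies and anti-CEBPA only, with 1.19% over the genome. The RUNX sequence TGTGGTT was found in 11.1%, 7.38% and 4.47%, with 4.71% over the genome, and AP-1, TGANTCA, in 10.4%, 8.54% and 6.52%, with 5.93%. The GATA sequence AGATAA went the other way, with 10.1%, 11.6% and 14.1% beside 13.3%. These differences stood beside the differences in GC content and H3K27ac, and their part was not tested. Within distal sites in H3K27ac the core was found in 50.0% (48.7 to 51.3) of the sites of both antibodies, 40.4% (37.9 to 43.0) of anti-CEBPA only and 28.8% of anti-ER only. In the same distal active sites PU.1 was found in 5.88%, 3.88% and 8.27%, and RUNX in 9.78%, 5.11% and 11.8%. A full estrogen response element was rare, found in 0.0172% of all windows. It was found in 7 of the 18088 windows of both antibodies (0.0387%, 0.0187 to 0.0799). For anti-CEBPA only it was found in 5 of the 29401 (0.017%, 0.00726 to 0.0398), and for anti-ER only in 4 of the 5084 (0.0787%, 0.0306 to 0.202). The half-site of this element, AGGTCA, was found in 11.1%, 9.45% and 11.4% of the class windows and in 11.0% of all windows. The core read backwards, AACGNNTT, kept as a control, was found in 2.51%, 2.47% and 2.66%, beside 1.91%.

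**Figure D4:**
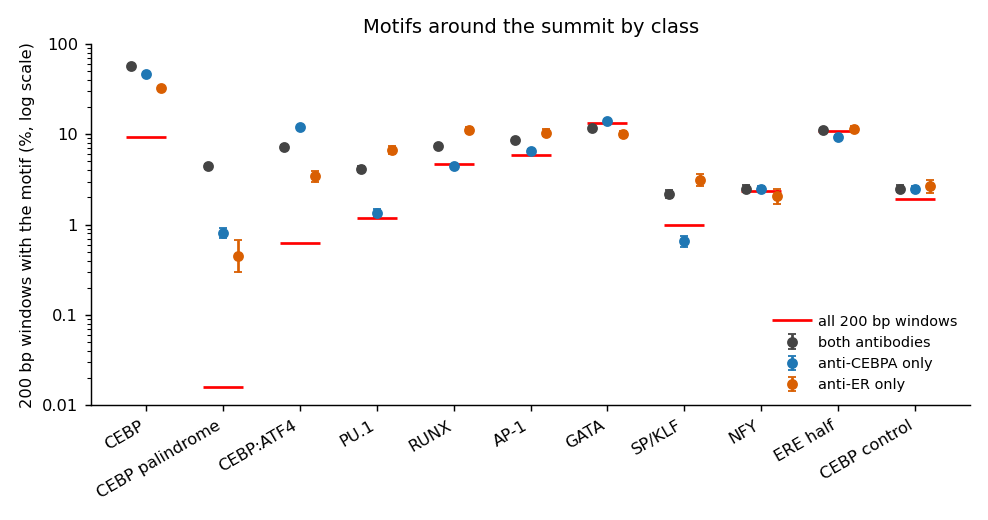
Share of 200 bp windows (%, log scale) with each consensus motif around the summits of the 3 classes, with Wilson 95% intervals, and red marks for all 200 bp windows of the genome. The C/EBP core and its palindrome are highest for both antibodies, the CEBP:ATF4 composite for anti-CEBPA only, and PU.1, RUNX and AP-1 for anti-ER only.

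Sites of 1 antibody only were found again in p30-expressing cells, whose lists the classes did not use, more often with the same antibody than with the other. The p30 lists differ in calling mark and labelled input in the same way, so antibody cannot be told apart from these here either. An anti-ER site of p30-expressing cells overlapped 89.5% of the sites of both antibodies, 64.9% (63.5 to 66.2) of those of anti-ER only and 23.2% (22.8 to 23.7) of those of anti-CEBPA only. For the anti-CEBPA list of p30-expressing cells the shares were 77.5%, 19.6% (18.6 to 20.7) and 41.5% (41.0 to 42.1). Distal anti-CEBPA only sites in H3K27ac were an exception, since 33.4% (31.0 to 35.9) of these 1390 sites overlapped a p30 anti-CEBPA site and 49.9% (47.2 to 52.5) a p30 anti-ER site. No p30 site of either antibody overlapped 6.86% of the sites of both antibodies, 33.7% of those of anti-ER only and 51.6% of those of anti-CEBPA only. Sites seen by anti-ER in both lines and by anti-CEBPA in neither numbered 2375, of which 63.7% (61.8 to 65.7) lay in H3K27ac and 31.6% held the core. Sites seen by anti-CEBPA in both lines and by anti-ER in neither numbered 7408. Of these 2.48% (2.15 to 2.86) lay in H3K27ac, 50.0% (48.9 to 51.1) held the core and 16.2% (15.4 to 17.1) the CEBP:ATF4 composite. The same classes made from the p30 lists had H3K27ac of that line at 31.3% of the sites of both antibodies, 5.05% of anti-CEBPA only and 48.7% of anti-ER only. Their core shares were 56.2%, 47.5% and 33.5%.

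The classes were then linked to genes. Of 21584 protein-coding genes, 6.65% had a promoter site of both antibodies, 3.68% one of anti-CEBPA only and 2.5% one of anti-ER only. A gene with several promoters can count in more than one class. An H3K27ac peak lay at the promoter of 53.0% of all genes. Among genes with a promoter site of both antibodies, 92.1% (90.5 to 93.3) had such a peak at a promoter. The shares were 95% (92.8 to 96.5) for genes with an anti-ER only site and 65.0% (61.7 to 68.3) for anti-CEBPA only. These are shares of genes, since the peak need not hold the summit of the site or lie at the same promoter. A distal site in H3K27ac had as its nearest gene 15.5%, 5.49% and 7.71% of all genes, for both antibodies, anti-CEBPA only and anti-ER only. The lists below were chosen for this cell type and design, with earlier results of these data known. Their counts are set beside these percentages.

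Genes of the C/EBP and Tribbles families had promoter sites of both antibodies in 4 of 9 cases. Of the Tribbles genes, *Trib1* and *Trib2* encode regulators that target C/EBPα for degradation. The 4 with a site were *Ddit3*, a stress-induced C/EBP partner, with fold enrichments of 24.6 and 18.0, and *Trib1* with 19.2 and 30.5, anti-CEBPA first. The others were *Trib3* with 8.16 and 7.68, and *Cebpg* with 7.31 and 11.6. At *Cebpa* itself the promoter site, 189 bp upstream of a start, was seen by anti-CEBPA only, with a fold enrichment of 6.72 and a rank of 31388. A second *Cebpg* promoter site was also of anti-CEBPA only, at 4.8. No anti-ER only site lay at a promoter of the list. With 50 kb on either side, a protein-coding gene had a median of 1 site of both antibodies, 1 of anti-CEBPA only and 0 of anti-ER only. *Cebpa* had 5, 2 and 1 in this order, *Cebpb* 4, 1 and 2, and *Cebpe* 4, 0 and 0. At *Cebpd* the counts were 0, 1 and 2, and at *Trib2*, whose sites were all of anti-CEBPA only, 0, 4 and 0.

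Neutrophil granule and effector genes had promoter sites of both antibodies in 7 of 20 cases (35.0%, 18.1 to 56.7). Among them were *Camp*, an antimicrobial peptide, with 19.4 and 30.7, *S100a8*, a calcium-binding protein, with 10.1 and 19.7, and *Ms4a3* with 8.77 and 8.05. Anti-ER only sites lay at *Ngp* (6.72), *Mmp8* (4.89) and a second place of the *Mpo* promoter (3.83). Anti-CEBPA only sites lay at *Ltf* (10.1) and at a second place of *S100a8* (5.28). Of these 5, those at *Ngp* and *Mmp8* lay outside H3K27ac.

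Receptors for growth factors and cytokines had the highest promoter share, 7 of 15 (46.7%, 24.8 to 69.9) with both antibodies. *Il6ra* had 22.6 and 36.8, *Il1r1* 9.4 and 10.6, *Tnfrsf1a* 12.5 and 8.4, and *Csf3r*, the receptor of granulocyte colony-stimulating factor, 12.0 and 11.7. No receptor had an anti-CEBPA only promoter site, and *Csf1r*, the macrophage growth factor receptor, had one of anti-ER only at 6.24. A distal site of both antibodies in H3K27ac had 9 of the 15 receptors as its nearest gene.

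Of 20 haematopoietic transcription factors, 4 had a promoter site of both antibodies, *Myb* with 50.5 and 42.9, *Tal1* with 24.5 and 22.2, *Meis1* with 9.74 and 15.6, and *Erg* with 7.8 and 9.36. Anti-ER only promoter sites lay at *Spi1* (8.64), which encodes PU.1, *Gfi1* (6.48) and *Runx1* (3.69), all in H3K27ac, and no member had one of anti-CEBPA only. Distal sites in H3K27ac had 12 of the 20 as nearest gene for both antibodies, 5 for anti-CEBPA only and 8 for anti-ER only. With 50 kb on either side, the highest counts of the list were those of 2 long genes, *Runx1*, with 11 sites of both antibodies, 1 of anti-CEBPA only and 5 of anti-ER only, and *Etv6*, with 11, 2 and 7. At *Klf4* the counts were 0, 2 and 0, and at *Klf5* 0, 0 and 1.

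Inflammatory genes were found in each class, with 8 of 41 for both antibodies, 4 for anti-CEBPA only and 3 for anti-ER only. With both antibodies, *Ptgs2*, which makes prostaglandins, had 32.7 and 14.7. *Nfkbiz* and *Nfkbia*, of the IκB family that regulates NF-κB, had 14.7 and 10.7, and 16.3 and 8.64. The chemokine *Ccl9* had 9.36 and 9.19. The cytokine *Il6* had an anti-CEBPA only site 133 bp upstream of its start, at 14.1 and outside H3K27ac. Further sites of anti-CEBPA only lay at a second *Nfkbiz* promoter (11.3), *Il1a* (9.27) and *Tnf* (5.73). Those of anti-ER only lay at *Tlr4*, the LPS receptor, at 5.04, and at further promoters of *Tnfaip3* and *Il1b*, both at 4.56. In the AP-1 list, 3 of 14 members had promoter sites, all of both antibodies. The list held small Maf genes beside Fos, Jun, Batf and *Atf3* genes. Of the 3, *Mafg* and *Maff* are small Maf genes, and *Fosb* was the only one of the other families. *Mafg* had the largest gap between antibodies among the promoter genes named from the lists, with 13.5 for anti-CEBPA and 63.3 for anti-ER, while *Maff* had 12.6 and 14.4, and *Fosb* 9.74 and 5.28.

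Genes known to respond to the estrogen receptor were listed because 1 antibody is directed at it. A promoter site of both antibodies was found in 1 of the 18, *Nrip1* (5.49 and 4.43), and one of anti-CEBPA only in 1, *Xbp1* (6.24). Anti-ER only promoter sites were found in 0 of 18 (upper bound 17.6%). Distal sites in H3K27ac had 9 of the 18 (50.0%) as nearest gene for both antibodies, 0 for anti-CEBPA only and 4 (22.2%, 9.0 to 45.2) for anti-ER only. Replication-dependent histone genes had anti-ER only promoter sites in 9 of 68 cases (13.2%, 7.12 to 23.3), led by *H2ac18* at 11.3 and *H2ac19* at 9.35. All 9 lay in H3K27ac, which was found at 58 of the 68 promoters. Some neighbouring histone genes shared a site, as *H2ac7* and *H2bc7* did, and the genes are near-identical copies, so single members are uncertain. Ribosomal protein genes had 5, 6 and 4 of 81 promoter sites in the order both antibodies, anti-CEBPA only and anti-ER only, although 78 of the 81 promoters had H3K27ac.

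**Figure D5:**
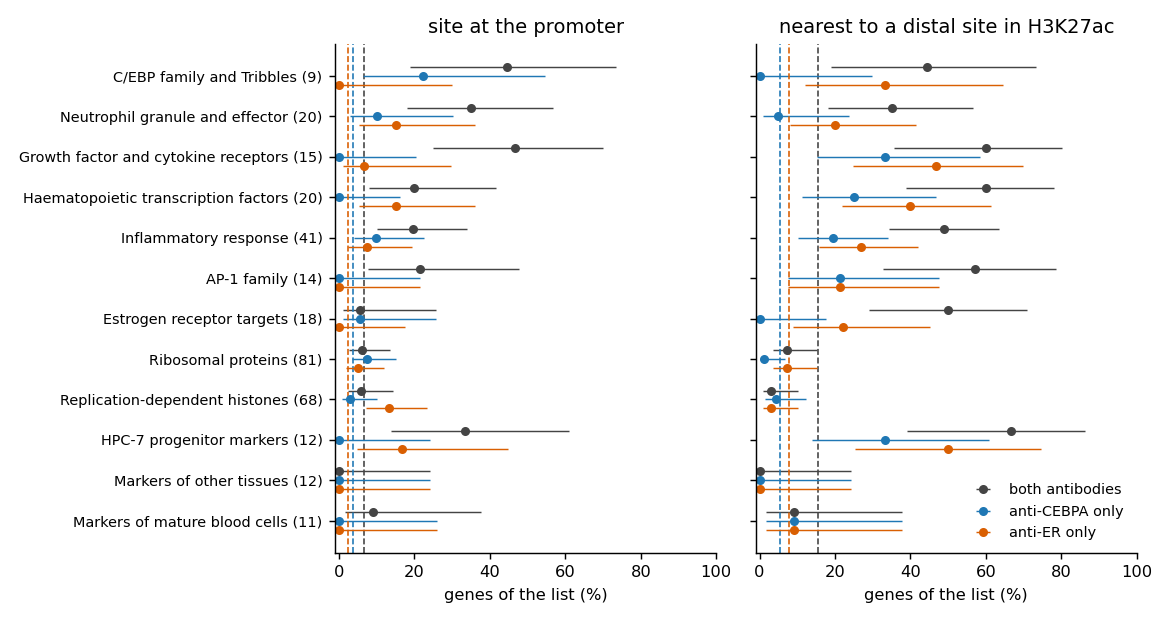
Share of genes (%) of each list with a promoter site of a class (left) or nearest to a distal site of it in H3K27ac (right), with Wilson 95% intervals; the number of genes is in brackets and dashed lines are the shares over all 21584 protein-coding genes. In the left panel, sites of both antibodies lie above their line with the whole interval in 7 of the 12 lists. These are the C/EBP, neutrophil, receptor, haematopoietic factor, inflammatory, AP-1 and progenitor genes. From 70.0% to 100% of the genes of these lists had H3K27ac at a promoter, beside 53.0% of all genes. Of the lists not among them, estrogen receptor targets had 72.2%, histone genes 85.3% and ribosomal protein genes 96.3%. The part of H3K27ac in the shares was not tested. The progenitor and haematopoietic factor lists overlap and hold the same 4 promoter genes of this class. In the right panel the same lists lie above their line, and so do the estrogen receptor targets (50.0% against 15.5%). Histone genes are the list whose highest promoter share is that of anti-ER only.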

How the data were processed

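ChIP-seq peak lists of HPC-7 cells were analysed. Groups were taken from the sample labels. According to the study's methods and processing notes, reads were trimmed with Trim Galore 0.6.6 and aligned to mm39 with Bowtie2 at its default reporting, duplicates marked by Picard were left out, and peaks were called with MACS2 against input. Each deposited list gives, per the authors, a fold enrichment at the summit, a −log10 p-value and a −log10 q-value. Their q-values reached 0.0495 (anti-CEBPA) and 0.0481 (anti-ER). Whether repeatedly aligning reads were filtered is not given in the sources used here.

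Of 47590 and 23287 deposited sites, 101 and 77 lay outside chromosomes 1 to 19 and X and were left out. Of 11 lists in the series, 9 were read. Shares carry Wilson 95% intervals, and no test was run, since each p42 list comes from 1 library. Marks and places were read at the summit. Places and genes came from GENCODE M39 and sequences from GRCm39. A total of 16 consensus motifs was searched on both strands in 200 bp around the summit and in all 200 bp windows. Copies were exact matches, on either strand of chromosomes 1 to 19 and X, of the 50 bases at the summit. Inexact copies and sequence outside these chromosomes were not counted, so a single copy does not exclude repeated sequence. Overlapping matches, as in tandem repeats, were counted separately.

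Named were the 5 best-ranked sites and the 5 best-ranked promoter sites of each class, ranked by q-value and then fold (both antibodies by the worse rank), and up to 4 promoter members per gene list and class. The members and lists were chosen with earlier results of these data known. Of the listed genes, *Hbb-b1* was not matched. The steps were tested on simulated data. Alternatives were lists at q under 1e-05, lists of equal length, summits within 100 bp and sites set to 300 bp around the summit. Further ones were stricter marks, promoters within 2500 bp, windows of 100 bp and sites with a single copy. Python 3.11.15, numpy 2.4.6, pandas 2.3.3, scipy 1.17.1, numba 0.67.0 and matplotlib 3.10.9 were used.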

Additional observations from a re-analysis of the deposited data

How the results depend on the processing

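Of the 88 values recomputed under an alternative, 39 stayed within the interval of the reported share and 49 did not. The order of the classes was the same under each alternative run, for H3K27ac, H3K4me1, promoters and the C/EBP core.

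With lists at q under 1e-05, 39.4% of the anti-CEBPA sites were shared. H3K27ac was then found at 5.56% of anti-CEBPA only and 61.1% of anti-ER only sites, and H3K4me1 at 4.68% and 28.6%. The core shares were 58.2%, 47.4% and 35.0% for both antibodies, anti-CEBPA only and anti-ER only. In the same order, p30 anti-CEBPA sites were found at 79.7%, 45.3% and 24.1%, and p30 anti-ER sites at 90.7%, 25.3% and 70.7%. With lists of equal length, 57.8% of the anti-CEBPA and 57.9% of the anti-ER sites were shared. For both antibodies and anti-CEBPA only, H3K27ac was found at 33.8% and 3.11%, H3K4me1 at 15.4% and 3.09%, and promoters at 12.1% and 5.0%. The core shares were 62.0%, 51.6% and 37.4%. With summits within 100 bp, 37.3% and 76.4% were shared, anti-CEBPA only sites had H3K27ac at 6.67% and H3K4me1 at 5.25%, and p30 anti-ER sites were found at 88.6% of both antibodies and 59.7% of anti-ER only. Stricter mark peaks gave H3K27ac shares of 39.0%, 5.46% and 55.8% and H3K4me1 shares of 15.4%, 3.74% and 23.2% for both antibodies, anti-CEBPA only and anti-ER only. Promoters within 2500 bp held 30.9%, 17.7% and 38.9%, and windows of 100 bp held the core in 51.9%, 39.6% and 27.4%.

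Keeping sites with a single copy was an alternative chosen after seeing the data. It gave 80.3% of the anti-ER sites as shared, and for anti-ER only 65.5% in H3K27ac, 31.1% in H3K4me1, 20.0% at promoters, 22.5% with a p30 anti-CEBPA and 67.5% with a p30 anti-ER site. Causes of these shifts were not tested, except that the alternatives by construction keep fewer, shorter or wider sites. Read depth, which sets how many weak sites are called, is unknown for both libraries. No paired analysis was possible because each list came from 1 library and no test was run, and leaving out a replicate was not possible for the same reason or because marks were pooled by the authors.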
